A study of Mus musculus with 3 samples.

Results

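The Rab GTPases measured here are 44 genes whose symbol in the probe annotation is Rab followed by a number and at most a letter and a further digit, out of 9678 genes with a named probe on the arrays. Each gene is represented by the probe with the highest mean level. The symbols chose the members, among probes kept in the authors' processed table. The filter behind that table is not given in the sources used here, so whether measured values entered it is not known. The samples are 3 biological replicates of OS25, a mouse embryonic stem (ES) cell line, labelled undifferentiated. All were grown in serum with leukaemia inhibitory factor (LIF) and hygromycin, and each was hybridised to 1 Illumina BeadArray. No other group was measured, so the data answer which Rab genes were transcribed at a detectable level and how far the replicates differed.

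Rab proteins are small GTPases that give each internal membrane its identity. A guanine nucleotide exchange factor (GEF) loads a Rab with GTP on its membrane, the active form recruits effectors such as tethers and motor adaptors, and a GTPase-activating protein (GAP) ends the cycle. A prenyl anchor holds the protein in the membrane, and GDP dissociation inhibitors carry it back through the cytosol. In most cells a housekeeping set serves the secretory and endocytic routes, while further members are known from epithelia, nerve endings, pigment cells or glandular cells.

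A probe was called detected on an array where its detection p, which compares it with that array's negative control beads, was under 0.01, and a gene was called detected where this held on all 3 arrays. Of the 44 Rab genes 38 (86.4%) were detected, beside 82.1% of all genes with a named probe. These shares lie close together. Both refer to genes with a name here, and names were available only for probes in the authors' processed table, 17754 of 45281. Both shares therefore depend on the filter of that table, which is not known. Another 15 of the 59 Rab genes in RefSeq had no named probe and are not analysed here. They are Rab2b, Rab30, Rab33a, Rab39 and Rab39b, placed at the Golgi, the secretory members Rab3c, Rab26, Rab37 and Rab44, the endosomal members Rab17, Rab20 and Rab25, the late endosomal and lysosomal Rab9b and Rab42, and Rab40b. Rab17 and Rab25 are known from epithelia and Rab3c from neurons.

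**Figure D1:**
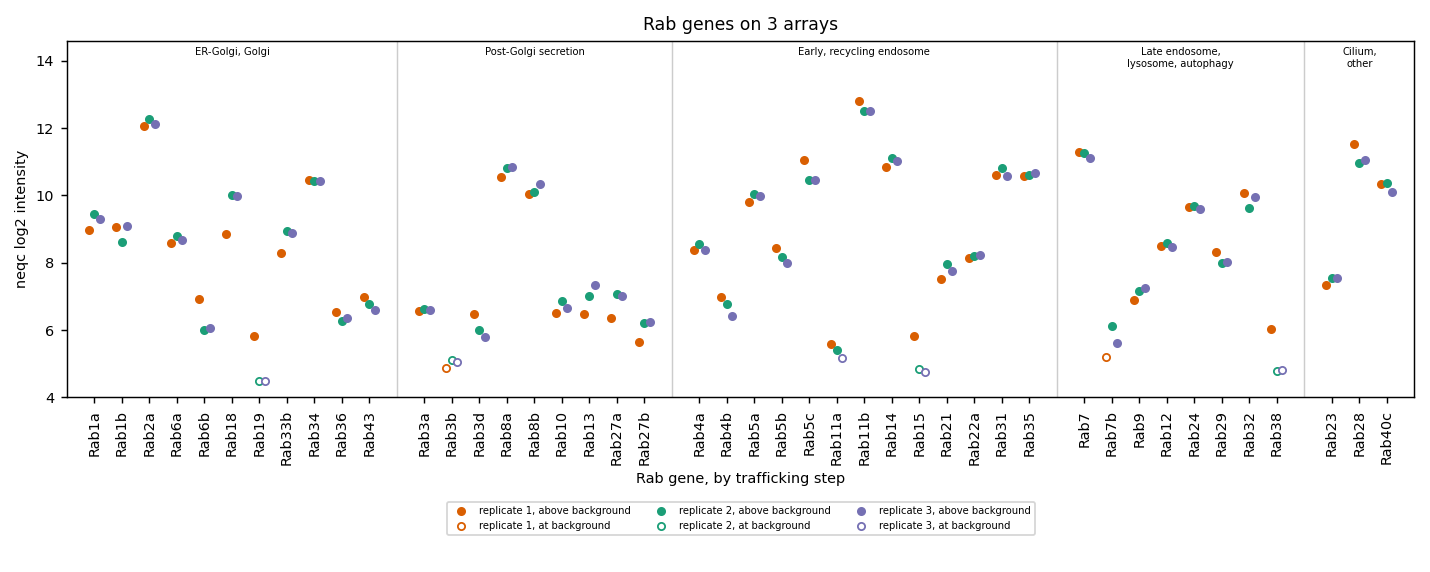
Normalised log2 intensity (vertical axis) of each of the 44 Rab genes on the 3 arrays, grouped by trafficking step; filled points are above background and open points are not. Levels of different genes come from different probes and are not comparable. Rab15, Rab19 and Rab38 have a filled point for replicate 1 alone, and Rab3b has none.

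The arrays differed in brightness, with a median unprocessed intensity of 74.9 to 80.7 and 14515 to 15865 of 45281 probes above background. Replicate 1 stood apart from replicates 2 and 3 over all genes, so results are also given without it. Of 10 ES cell markers, 3 had a named probe. Klf2 was level at 7.67, 7.54 and 7.72 (normalised log2 intensity on replicates 1, 2 and 3), and Klf4 was lowest on replicate 1, at 6.48, 8.08 and 7.86. Zfp42 was above background on replicate 1 alone, and the defining genes Pou5f1, Nanog and Sox2 had no named probe. Of 10 fibroblast markers, 9 had a named probe and 7 were detected (77.8%, beside 82.1% of all named genes). The summed unprocessed intensity of the 9 was 15803, 18504 and 14521 on replicates 1, 2 and 3. Single fibroblast markers differed far more than this sum. Of the 7 detected ones 5 spanned over 2-fold, beside 10.1% of all detected genes. Pdgfra (9.59, 6.07 and 5.84) and Dcn (12.28, 6.77 and 5.42, at background on replicate 3) were highest on replicate 1, while Thy1 (6.81, 9.85 and 9.49) and Fbln2 (11.65, 13.64 and 13.38) were lowest there. Of 6 epithelial markers, 4 had a named probe. All 4 were above background on replicate 1, against 2 on replicate 2 and 1 on replicate 3. Over all 45281 probes, 15865, 15206 and 14515 were above background on replicates 1, 2 and 3. The summed intensity of the 4 markers was 877, 623 and 612. Krt14 was above background on replicate 1 alone (7.59, 4.46 and 4.58), but Krt19, the 1 epithelial marker detected on all arrays, was lowest there (7.47, 8.34 and 8.59). The part of these cell types in the differences of replicate 1 described for Rab genes was not tested. The ES cell label could not be checked against Pou5f1, Nanog and Sox2 and rests on the submitters' description. Of the 3 ES cell markers with a named probe, Klf2 and Klf4 were detected on all arrays and Zfp42 was not. The fibroblast marker Col1a1 was detected on all arrays and was level, at 11.95, 11.99 and 11.76. Col1a2 was also detected on all of them but spanned 2.29-fold, and Col3a1 and Dcn were not. These are bulk samples, so fewer cells of a type and less RNA per cell cannot be told apart.

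In the early secretory pathway, 10 of 11 Rab genes with a named probe were detected (90.9%, beside 82.1% of all named genes). Rab1a and Rab1b act in transport from the endoplasmic reticulum to the Golgi. Rab1a was at 8.96, 9.46 and 9.29 (normalised log2 intensity) on replicates 1, 2 and 3, a mean of 9.24 ± 0.26 (SD, n = 3). Its close paralogue Rab1b was at 9.06, 8.62 and 9.09 (8.92 ± 0.26, SD, n = 3). The array that was lowest for Rab1b, replicate 2, was the highest for Rab1a. Rab2a, which works between the endoplasmic reticulum and the Golgi, was at 12.06, 12.28 and 12.12 (12.16 ± 0.11, SD, n = 3). Rab6a, which directs traffic within and out of the Golgi, was at 8.60, 8.81 and 8.68 (8.70 ± 0.11, SD, n = 3). With the chosen probes the whole range over the arrays was about 1.16-fold for both Rab2a and Rab6a, but another detected probe of Rab6a spanned 1.01 on the log2 scale (5.55, 6.56 and 6.21).

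The wide differences at this step were in other members. Rab18, found on the endoplasmic reticulum and on lipid droplets, was at 8.85, 10.02 and 9.98 (9.62 ± 0.66, SD, n = 3), with unprocessed intensities of 612, 1050 and 915. Replicate 1 lay 2.21-fold below the mean of the others, which differed by 0.03 on the log2 scale. Rab33b, a Golgi Rab linked to autophagosome formation, showed the same order with a smaller gap, at 8.28, 8.95 and 8.87 (8.70 ± 0.37, SD, n = 3). Rab6b, a form of Rab6 known from neurons, went the other way, at 6.92, 5.99 and 6.05 (6.32 ± 0.52, SD, n = 3), so that replicate 1 lay 1.86-fold above the others. Rab34, which is needed for building cilia in some cells, was nearly level with the chosen probe, at 10.47, 10.43 and 10.42 (10.44 ± 0.03, SD, n = 3). Its other detected probes spanned 0.64 (7.02, 6.88 and 6.37) and 0.22 (10.19, 10.41 and 10.25) on the log2 scale. Rab36 (6.40 ± 0.13, SD, n = 3) and Rab43 (6.79 ± 0.20, SD, n = 3), both placed at the Golgi, were highest on replicate 1.

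Rab19 was the remaining member of this group. It was above background on replicate 1 (5.81, detection p of 0) and at background on replicates 2 and 3 (detection p of 0.456 and 0.471). Its unprocessed intensities were 123, 72.7 and 68.4. Against the lowest level measurable on replicates 2 and 3, replicate 1 was at least 1.31-fold higher.

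Rab genes of the route from the Golgi to the cell surface were detected at 8 of 9 (88.9%, beside 82.1% of all named genes). Rab8a and Rab8b, which carry cargo to the plasma membrane and to cilia, were at 10.55, 10.81 and 10.86 and at 10.05, 10.10 and 10.34. Rab10, which serves the same step and moves the glucose transporter GLUT4 in fat cells, was at 6.51, 6.85 and 6.65 (6.67 ± 0.17, SD, n = 3). Rab13, known from cell junctions, was at 6.47, 7.0 and 7.35 (6.94 ± 0.44, SD, n = 3). Replicate 1 was thus the lowest array for each of these genes.

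Members of regulated secretion were also present. Rab27a, which moves pigment granules and secretory lysosomes, was at 6.36, 7.08 and 7.02 (6.82 ± 0.40, SD, n = 3), with replicate 1 1.62-fold below the others. Its paralogue Rab27b was at 5.65, 6.21 and 6.23 (6.03 ± 0.33, SD, n = 3). Replicate 1 was the lowest array for both. Rab3a, of synaptic vesicles, had the narrowest range of all detected Rab genes, at 6.58, 6.62 and 6.59 (6.60 ± 0.02, SD, n = 3). Rab3d, known from exocrine glands, was at 6.48, 6.0 and 5.78 (6.08 ± 0.36, SD, n = 3) and was the 1 detected gene of this step that was highest on replicate 1. Rab3b was at background on every array (detection p of 0.0716, 0.0353 and 0.0545), with unprocessed intensities of 86.9, 90.5 and 83.1. Of 6 markers of neurons and neuroendocrine cells, 2 had a named probe and neither was detected on all arrays. Syt1 was above background on replicate 1 alone (6.53, 4.46 and 4.36). Stmn2 was above background on replicates 2 and 3 alone (4.53, 7.81 and 7.97). The part of such cells in these values was not tested.

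Replicate 1 was the lowest array for 7 of the 8 detected genes of this step, beside 43.3% of all detected genes. Some of these gaps were small, as for Rab3a at 6.58, 6.62 and 6.59. With the mean of each gene's probes the count was 6 of the 8. At the other steps it was 5 of 10 (early secretory), 6 of 11 (early and recycling endosome), 1 of 6 (late endosomal and lysosomal) and 1 of 3 (remaining members). Without normalisation between arrays, the median of replicate 1 minus the mean of the others was 0.39 over all detected genes. Replicate 1 was then the lowest array for 3 of the 8 post-Golgi genes, beside 16.1% of all detected genes under that setting. Of the 8, 6 then lay below that median of all detected genes. Genes of 1 step share their arrays, so the count describes these arrays.

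At the early and recycling endosome, 11 of 13 Rab genes were detected (84.6%, beside 82.1% of all named genes). Rab5a, Rab5b and Rab5c all drive fusion of early endosomes. Rab5a was at 9.80, 10.04 and 9.97 (9.94 ± 0.12, SD, n = 3), lowest on replicate 1. Rab5b was at 8.43, 8.18 and 7.98 (8.20 ± 0.23, SD, n = 3) and Rab5c at 11.06, 10.45 and 10.45 (10.65 ± 0.35, SD, n = 3), both highest there. The 3 paralogues thus did not share an order of the arrays, and the gap of replicate 1 to the others was 1.53-fold for Rab5c. Of the fast recycling pair, Rab4a was at 8.37, 8.56 and 8.39 and Rab4b at 6.97, 6.77 and 6.42 (6.72 ± 0.28, SD, n = 3).

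The slow recycling pair differed in detection. Rab11b was at 12.82, 12.51 and 12.52 (12.62 ± 0.18, SD, n = 3). Rab11a, its paralogue, was above background on replicates 1 and 2 (detection p of 0.00107 and 0.00855) and not on replicate 3 (0.0353), at 5.59, 5.41 and 5.18. The pair was measured by different probes, so their levels cannot be set against each other. Rab14, between the Golgi and endosomes, was at 10.84, 11.10 and 11.02 (10.99 ± 0.13, SD, n = 3), and Rab35, of fast recycling and cell division, at 10.57, 10.61 and 10.67 (10.62 ± 0.05, SD, n = 3). Rab22a, an early endosome Rab, was as level, at 8.14, 8.21 and 8.24 (8.20 ± 0.05, SD, n = 3).

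Rab21, which binds integrins (7.75 ± 0.22, SD, n = 3), and Rab31, of the route between the trans-Golgi and endosomes (10.67 ± 0.12, SD, n = 3), were also detected. Rab15, a Rab of the recycling compartment known from neural tissue, was above background on replicate 1 alone, at 5.82 (detection p of 0, 0.108 and 0.145). It was at least 1.32-fold higher there than on the other arrays.

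In the late endosomal and lysosomal group, 6 of 8 Rab genes were detected (75%, beside 82.1% of all named genes). Rab7, which brings late endosomes to fusion with lysosomes, was at 11.29, 11.26 and 11.10 (11.22 ± 0.10, SD, n = 3). Rab9, which returns receptors from late endosomes to the Golgi, was at 6.88, 7.17 and 7.25 (7.10 ± 0.20, SD, n = 3). Rab12, which directs the transferrin receptor to degradation (8.53 ± 0.06, SD, n = 3), and Rab24, linked to autophagy (9.65 ± 0.06, SD, n = 3), each spanned 1.09-fold. Rab29, a partner of the kinase LRRK2, was at 8.32, 7.99 and 8.01 (8.10 ± 0.19, SD, n = 3). None of the 6 spanned over 1.5-fold, beside 30.9% of all detected genes.

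Rab32 and Rab38 are paralogues that share a role in building pigment granules. Rab32 was at 10.08, 9.64 and 9.95 (9.89 ± 0.22, SD, n = 3). Rab38 was above background on replicate 1 at 6.02 and at background on the others (detection p of 0, 0.125 and 0.124), and its second probe gave the same calls (0.00107, 0.573 and 0.262). It was at least 1.52-fold higher on replicate 1. The pigment cell list had 1 of 5 members with a named probe, Pmel, which was likewise above background on replicate 1 alone (detection p of 0, 0.0598 and 0.0855). Its part in the Rab38 values was not tested. Rab7b was the other undetected member, at 5.21, 6.11 and 5.62 with the chosen probe. That probe was above background on replicates 2 and 3 and just short of the threshold on replicate 1 (detection p of 0.0118, 0 and 0.00641). The second probe of Rab7b gave different calls (0.00962, 0 and 0.0256). It missed the threshold on replicate 3 but passed it on replicates 1 and 2, so the array pattern of Rab7b depends on the probe.

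Of the remaining members all 3 were detected, beside 82.1% of all named genes. Rab23, a negative regulator of Hedgehog signalling, was at 7.33, 7.55 and 7.56 (7.48 ± 0.13, SD, n = 3). Rab28, known from the cilium of photoreceptors, was at 11.53, 10.96 and 11.04 (11.18 ± 0.31, SD, n = 3), highest on replicate 1 with each of its 3 probes. Rab40c, which joins a ubiquitin ligase, was at 10.35, 10.38 and 10.11 (10.28 ± 0.15, SD, n = 3).

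Across the 38 detected Rab genes the median range between arrays was 0.32 on the log2 scale, beside 0.41 for all detected genes. Rab18 alone spanned over 2-fold, which is 2.63% of the detected Rab genes beside 10.1% of all detected genes. At the lower limit of 1.5-fold there were 7 (18.4%, beside 30.9%): Rab18, Rab6b, Rab13, Rab27a, Rab3d, Rab33b and Rab5c. Each replicate was 1 array, so these differences have no replicate check. In 23 of the 38 (60.5%, beside 63.7%) the value lying farthest from the middle one was that of replicate 1. It was the highest array for 13 (34.2%, beside 43.2%) and the lowest for 20 (52.6%, beside 43.3%). Without replicate 1 the median range was 0.12 for detected Rab genes and 0.14 for all detected genes. Between replicates 2 and 3 alone, no detected Rab gene differed by over 1.5-fold, beside 186 of all 7950 detected genes, and the largest gap was 0.47, for Rab1b.

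**Figure D2:**
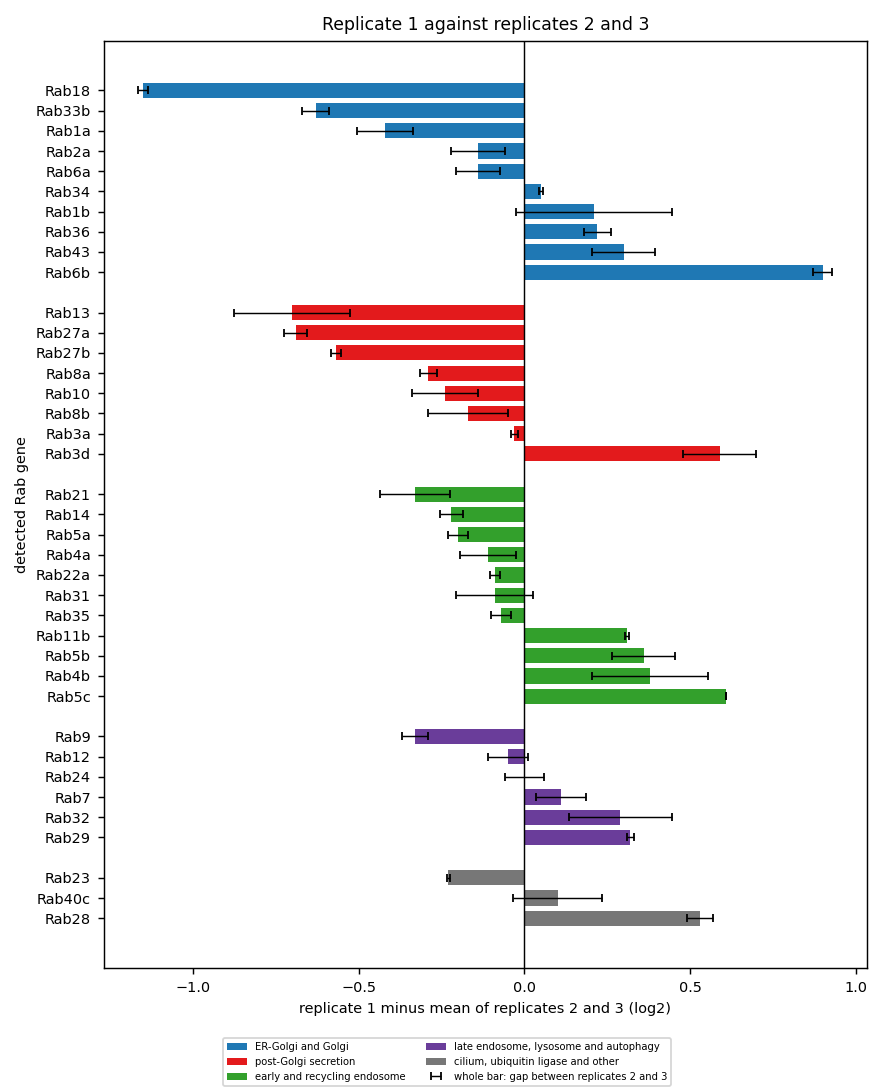
Difference between replicate 1 and the mean of replicates 2 and 3 (horizontal axis, log2) for each of the 38 detected Rab genes, coloured by trafficking step; the length of each black line is the gap between replicates 2 and 3. Values run from −1.15 for Rab18 to 0.90 for Rab6b, and 7 of the 8 post-Golgi genes lie below 0.

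**Figure D3:**
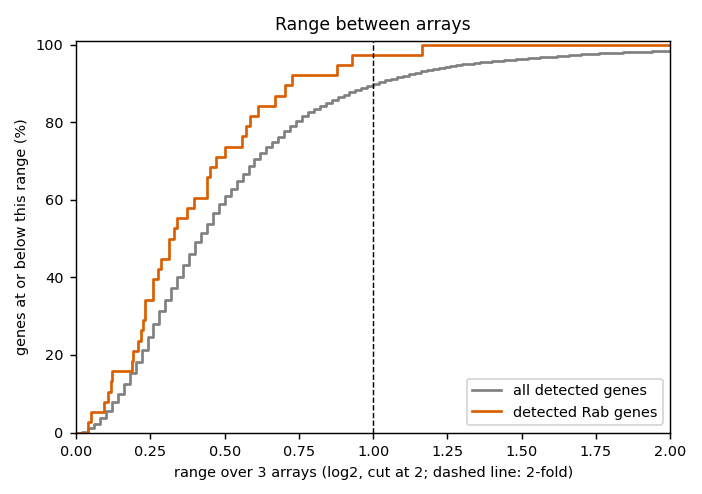
Share of genes (vertical axis, %) whose range over the 3 arrays (horizontal axis, log2) is at or below each value, for the 38 detected Rab genes and all 7950 detected genes. The Rab curve passes 2-fold, the dashed line, with 1 gene beyond it.

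Several probes were available for 18 of the 44 Rab genes. All probes were detected for 13 of them, none for 2, and some for 3, namely Rab6a (3 of 4 probes), Rab43 (2 of 3) and Rab10 (1 of 2). Of 15 genes with more than 1 detected probe, 11 had all of them on the same side when replicate 1 was set against the mean of the others, and 4 did not. The probes of Rab13 differed little, at −0.70 and −0.62 (log2). The probes of Rab14 lay on the same side but at −0.77 and −0.22. The exceptions were Rab7, Rab9, Rab24 and Rab34. In Rab9 the chosen probe stood at −0.33 and the other at 0.31, so the array order of Rab9 depends on the probe. The probe sequences were not used here, so cross-hybridisation between close paralogues was not tested.

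The promoters of the Rab genes were compared by base content, since promoters rich in CpG dinucleotides are typical of broadly transcribed genes. Promoter sequences from RefSeq on GRCm38.p6 were used for 48 of the 59 Rab genes, with 60 start sites, and the 250 bases before each start were read. Rab windows on 1 chromosome were left out, while the sets of all genes kept theirs. Rab18 and Rab27b have no window here. A window was called CpG-rich where its G+C content was over 50% and its ratio of observed to expected CpG over 0.6. Of the 42 windows of detected Rab genes 29 (69%) were CpG-rich, beside 65.1% for all detected genes, so the share is near that of detected genes in general. Among Rab genes not detected on all arrays 1 of 7 windows was CpG-rich (14.3%, beside 41.6% for all such genes), the exception being 1 of the 4 windows of Rab15. Among those with no named probe 4 of 11 were (36.4%, beside 23.4% of such protein-coding genes). These shares are descriptions. Several windows belong to 1 gene, and the windows not detected come from 4 genes.

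Motifs were searched on both strands of the same windows. The GC box GGGCGG occurred in 29 of 42 windows of detected Rab genes (69%) and in 61% of those of all detected genes. The CCAAT box CCAAT occurred in 42.9% and 35.9%, the E-box CACGTG in 9.52% and 8.81%, and the TATA box TATAAA in 2.38% and 6.06%. None of these motifs contains another, and a match does not show that a factor binds.

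The promoters of 5 Rab genes are shown, chosen by the pattern between arrays from the genes with a single annotated start among the windows used. They do not include its low end. Rab18 (−1.15, replicate 1 minus the mean of the others, log2), Rab13 (−0.70) and Rab27a (−0.69) lay below all genes shown. Rab27b (−0.57) lay below Rab1a (−0.42). These genes have no window here or more than 1. Rab6b and Rab5c stood highest on replicate 1 among detected genes with such a start, Rab33b and Rab1a stood lowest, and Rab19 was above background on replicate 1 alone. Each is written 5′ to 3′ on the strand of the gene, with every CpG in capitals.
Rab6b, chr9:103111824-103112073, plus strand: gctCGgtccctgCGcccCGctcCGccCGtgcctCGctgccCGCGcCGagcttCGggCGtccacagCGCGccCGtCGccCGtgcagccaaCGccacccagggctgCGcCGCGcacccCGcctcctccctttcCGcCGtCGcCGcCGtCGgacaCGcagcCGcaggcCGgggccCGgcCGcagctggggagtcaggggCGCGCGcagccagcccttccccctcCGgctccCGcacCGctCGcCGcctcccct
Rab5c, chr11:100738216-100738465, minus strand: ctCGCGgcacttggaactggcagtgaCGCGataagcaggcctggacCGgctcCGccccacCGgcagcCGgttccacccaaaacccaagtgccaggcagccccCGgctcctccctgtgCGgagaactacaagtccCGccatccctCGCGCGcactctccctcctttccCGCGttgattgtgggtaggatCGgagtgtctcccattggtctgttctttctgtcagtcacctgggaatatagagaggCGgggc
Rab33b, chr3:51483716-51483965, plus strand: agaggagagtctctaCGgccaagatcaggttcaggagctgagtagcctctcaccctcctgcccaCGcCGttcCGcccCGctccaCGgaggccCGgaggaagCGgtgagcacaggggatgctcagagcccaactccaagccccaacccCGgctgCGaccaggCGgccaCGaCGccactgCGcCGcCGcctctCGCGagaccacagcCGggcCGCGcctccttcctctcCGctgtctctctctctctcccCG
Rab1a, chr11:20201162-20201411, plus strand: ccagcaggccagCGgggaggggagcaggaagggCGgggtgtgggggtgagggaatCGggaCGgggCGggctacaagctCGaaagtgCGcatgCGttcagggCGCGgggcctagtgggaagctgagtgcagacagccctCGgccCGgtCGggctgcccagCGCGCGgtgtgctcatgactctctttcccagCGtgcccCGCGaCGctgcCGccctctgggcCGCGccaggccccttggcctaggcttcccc
Rab19, chr6:39381103-39381352, plus strand: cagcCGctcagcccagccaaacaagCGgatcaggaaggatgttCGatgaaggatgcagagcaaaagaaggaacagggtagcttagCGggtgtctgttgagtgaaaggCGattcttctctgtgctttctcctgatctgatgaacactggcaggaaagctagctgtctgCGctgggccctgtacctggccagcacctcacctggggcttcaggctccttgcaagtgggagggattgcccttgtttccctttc

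The windows hold 40 CpG in Rab6b, 18 in Rab5c, 23 in Rab33b, 23 in Rab1a and 6 in Rab19. Among the 4 detected genes shown, the counts of Rab33b and Rab1a, low on replicate 1, lay between those of Rab6b and Rab5c, high there. The median was 18.5 over windows of detected Rab genes and 16 over those of all detected genes. Rab19 holds none of the 4 motifs, and Rab1a holds 3 GC boxes.

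Genes that load, anchor and recycle Rab proteins were also detected. Of 11 in that list 7 had a named probe and all 7 were detected, beside 82.1% of all named genes. Rabggtb, the catalytic subunit of the enzyme that attaches the prenyl anchor, was at 10.09, 10.97 and 11.25 (10.77 ± 0.61, SD, n = 3), lowest on replicate 1 and spanning 2.24-fold. Its partner subunit Rabggta was level at 7.74, 7.77 and 7.82 (7.78 ± 0.04, SD, n = 3). Gdi2, a GDP dissociation inhibitor, was at 6.50, 6.43 and 6.69 (6.54 ± 0.14, SD, n = 3). The protease Rce1 (8.46 ± 0.18, SD, n = 3) and the methyltransferase Icmt (9.58 ± 0.16, SD, n = 3), which process the ends of many prenylated proteins, had the next widest ranges of the list. The escort protein genes Chm and Chml had no named probe.

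Exchange factors were detected at 25 of 29 with a named probe, out of 36 in the list (86.2%, beside 82.1% of all named genes). Spans over 2-fold occurred in 3 of the 25 (beside 10.1% of all detected genes). Dennd3, a GEF for Rab12, was at 8.05, 6.83 and 7.13. Dennd2c, another gene of the DENN family, was at 6.73, 7.82 and 7.79. Rin2, a Rab5 GEF, was at 7.30, 6.75 and 6.29. Dennd3 and Rin2 were thus highest on replicate 1 and Dennd2c lowest. Not detected on all arrays were Rab3il1 (6.24, 5.47 and 5.10), Ric1 (6.39, 5.80 and 5.20), Dennd4b (5.11, 5.21 and 5.60) and Dennd5b (5.08, 5.42 and 5.50), of which Rab3il1 encodes a GEF for Rab8 and Ric1 part of the GEF for Rab6.

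The TRAPP complexes are multi-subunit GEFs for Rab1 and other Golgi Rabs. All 14 subunit genes in the list had a named probe and were detected, beside 82.1% of all named genes. Trappc6a was at 7.07, 6.27 and 5.91 (6.42 ± 0.59, SD, n = 3). It was the 1 subunit of the 14 that spanned over 2-fold, beside 10.1% of all detected genes. Trappc8 was at 7.20, 7.99 and 8.04 (7.74 ± 0.47, SD, n = 3), and Trappc5 at 6.54, 6.16 and 6.77 (6.49 ± 0.31, SD, n = 3). The widest members thus lay in different orders over the arrays.

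GAPs were detected at 25 of 30 with a named probe, out of 37 (83.3%, beside 82.1% of all named genes). Tbc1d2, a GAP for Rab7, had the widest range of this list, at 7.31, 9.41 and 8.78 (8.50 ± 1.08, SD, n = 3), spanning 4.29-fold. Rab7 itself spanned 1.14-fold on the same arrays. Rab3gap2, a subunit of a complex that acts on Rab3 and Rab18, was at 8.42, 9.20 and 9.25 (8.96 ± 0.46, SD, n = 3), lowest on replicate 1. Rab18 was also lowest there, but Rab3d was highest, and 43.3% of all detected genes were lowest on that array. Sgsm1 was at 8.39, 7.58 and 7.82 (7.93 ± 0.42, SD, n = 3). Undetected members were Tbc1d14 (5.29, 4.85 and 5.10), Tbc1d22b (detection p of 0.00214, 0.062 and 0.0374), Tbc1d24 (6.32, 6.13 and 5.47), Rabgap1l (5.05, 5.56 and 5.56) and Grtp1 (5.54, 4.72 and 4.85).

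Of 26 effectors of the secretory Rabs 12 had a named probe, and 10 of these were detected (83.3%, beside 82.1% of all named genes). Myo5a, the motor that Rab27a uses in pigment cells, was at 7.03, 8.48 and 8.34 (7.95 ± 0.80, SD, n = 3), lowest on replicate 1 as Rab27a was. Ocrl, an inositol phosphatase recruited by several Rabs, was at 7.56, 8.55 and 8.24 (8.12 ± 0.51, SD, n = 3), and the Golgi tether gene Gcc2 at 8.28, 8.81 and 8.68. Replicate 1 was the lowest array for 7 of the 10, beside 43.3% of all detected genes. Sytl4, a Rab27 effector of secretory granules, was above background on replicate 1 alone (6.31, 4.81 and 4.49), as was Rims2 (5.55, 4.70 and 4.62).

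Endosomal effectors were detected at 26 of 28 with a named probe, out of 32 (92.9%, beside 82.1% of all named genes). None spanned over 2-fold, beside 10.1% of all detected genes, and 7 of the 26 spanned over 1.5-fold, beside 30.9%. Their median range was 0.50 on the log2 scale, beside 0.41 for all detected genes. The widest were Hps3 (6.84, 7.38 and 7.49) and Hps6 (8.25, 7.80 and 7.60), which belong to 1 complex of lysosome-related organelles, and Vps41 (7.43, 8.07 and 7.91), a subunit of the HOPS tether of late endosomes. Hps3 was lowest on replicate 1 and Hps6 highest. Rab11fip4, of the family that binds Rab11, was above background on replicate 1 alone (5.51, 4.60 and 4.31), and Rufy3 on replicates 2 and 3 alone (5.05, 5.44 and 5.55).

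**Figure D4:**
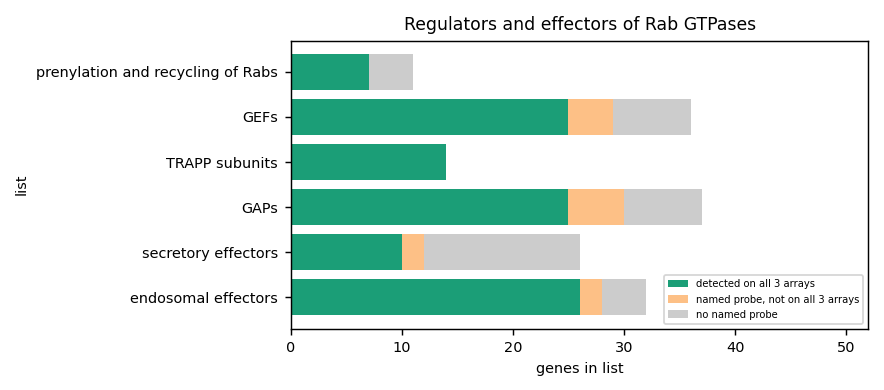
Number of genes (horizontal axis) in each of 6 lists of Rab regulators and effectors that were detected on all 3 arrays, had a named probe but were not detected on all 3, or had no named probe. All 14 TRAPP subunit genes were detected, and 14 of 26 secretory effector genes had no named probe.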

How the data were processed

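RNA of the 3 replicates was extracted with TRIzol and biotin-labelled, per the labels. As deposited, the unprocessed table holds each probe's linear intensity before normalisation, with a detection p-value per array, per the file headers. The authors' processed table holds log2 values of 17754 of 45281 probes. Its columns share 1 distribution, and limma is named in the submitters' processing notes. For probe filter, bead software and limma version, the sources used here give nothing. Of the processed probes 15045 were assigned to 1 gene and 5 to several, which were left out; names came from the platform annotation, updated by Entrez identifier through RefSeq (9662 of 9678 genes matched).

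Levels are neqc values (limma 3.58.1, R 4.3.3): normexp background correction, an offset of 16, quantile normalisation and log2. For a probe at background on some arrays, "at least" folds use the higher of its own level and the lowest level above background on each. The number of arrays limits the precision, and no test between groups was possible. Steps were tested on simulated data. Tables used Python 3.11.15 and pandas 2.3.3.

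The members and lists were chosen with earlier results of these data known. Array values were given for undetected Rab genes, the 10 widest and 4 narrowest detected ones, fixed members of each step, and core, undetected and the 3 widest genes of each regulator list. Markers of other cell types are printed only where they touch a result: of the blood markers 1 of 6 had a named probe and was detected.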

Additional observations from a re-analysis of the deposited data

How the results depend on the processing

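The number of detected Rab genes ranged from 35 to 43 over 9 alternatives. It was 40 of 44 at a detection p under 0.05, beside 89.1% of all named genes, and 36 under 0.001, beside 75.6%. With detection on at least 1 array it was 43, beside 96.2%, and with every probe required 35, beside 71.8%. Without 1 replicate it was 38 to 39, beside 83% to 85%. The number spanning over 2-fold was 4 with detection on at least 1 array (12.9% of all genes), 4 with no filter on dim probes (12.4%), 4 without normalisation between arrays (18.1%), and 7 at 1.5-fold (30.9%), a limit chosen after the data were seen. Leaving out replicates gave 0 to 1, with 0 without replicate 1 (0.456% of all genes). The median range was 0.12 to 0.26 with 1 replicate left out, lowest without replicate 1, and 0.49 without normalisation between arrays (0.59 for all genes). The cause of these changes was not tested. Replicate 1 was farthest from the middle in 19 of 38 to 27 of 44 genes over 9 alternatives, beside 62.6% to 64.5% of all genes. The differences of replicate 1 for the 7 widest genes kept their sign under 5 alternatives each, but their sizes depended on the processing. With the authors' processed values they were smaller for Rab6b (0.53), Rab3d (0.32), Rab27a (-0.44), Rab13 (-0.46) and Rab33b (-0.55). Rab18 (-1.05) and Rab5c (0.60) changed little. Without normalisation between arrays, where the median of this difference over all detected genes was 0.39, the sizes moved as follows. Rab18 went from -1.15 to -0.74, Rab6b from 0.90 to 1.33, Rab5c from 0.61 to 0.94, Rab13 from -0.70 to -0.26, Rab27a from -0.69 to -0.25, Rab33b from -0.63 to -0.22 and Rab3d from 0.59 to 1.01. The number of post-Golgi genes lowest on replicate 1 was then 3. No paired analysis was possible because there is 1 group. Genes near background, such as Rab11a and Rab7b, turn on the detection threshold.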
